A study of Mus musculus with 8 samples.

Results

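The 6 genes described here encode Fc receptors, the cell-surface proteins that bind the constant (Fc) part of antibodies, and their partner chain. They are Fcgr1, Fcgr2b, Fcgr3, Fcgr4, Fcer1g and Fcgrt. They were chosen by name from the 43346 genes of the deposited table, and all 6 were found, each under 1 identifier. RNA was sequenced from cortex together with hippocampus of 8 mice at 1.5 months of age, 4 expressing green fluorescent protein (GFP) and 4 expressing a fusion of GFP with 100 repeats of glycine and arginine (GFP-GR100), with 2 females and 2 males in each group. GFP 1 and 2 and GFP-GR100 1 and 2 were the females. Each library has its own mouse number and brain weight in the labels. Such glycine-arginine chains, poly(GR), are translated from the expanded C9orf72 repeat in frontotemporal dementia and amyotrophic lateral sclerosis. Both proteins were cloned in an adeno-associated virus vector plasmid, so GFP is shared by the groups. The sources used here do not state the promoter, the route and age of delivery or the mouse strain, and RNA of the construct was not analysed here.

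Fc gamma receptors bind immunoglobulin G (IgG) and link antibodies to phagocytosis and cytokine release. In the mouse Fcgr1, Fcgr3 and Fcgr4 encode activating receptors. They signal through the common gamma chain encoded by Fcer1g, whose tail carries an immunoreceptor tyrosine-based activation motif (ITAM) that recruits the kinase Syk. Fcgr2b encodes the inhibitory receptor, whose own tail carries an inhibitory motif (ITIM) that recruits the phosphatase encoded by Inpp5d. Fcgrt encodes the neonatal Fc receptor FcRn, which pairs with beta-2 microglobulin (B2m), recycles IgG and albumin, and is not a signalling receptor. In the brain the Fc gamma receptors are known mainly from microglia and border macrophages, and FcRn from endothelium and choroid plexus.

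In the mm10 coordinates of the deposited table, 4 of the 6 genes lie within 275.7 kb of chromosome 1. Fcgr2b (ENSMUSG00000026656) spans 170958617 to 170976547, Fcgr4 (ENSMUSG00000059089) 171018920 to 171029761, Fcgr3 (ENSMUSG00000059498) 171051174 to 171064935 and Fcer1g (ENSMUSG00000058715) 171229572 to 171234365. Fcgr1 (ENSMUSG00000015947) lies on chromosome 3 from 96282909 to 96293969, and Fcgrt (ENSMUSG00000003420) on chromosome 7 from 45092993 to 45103822. The 250 bases before the RefSeq transcription start of the 4 Fcgr genes are shown because the levels of these genes followed each other across the libraries. In them 3 patterns of factors active in myeloid cells were searched on both strands. The patterns were TTCNNNGAA (bound by STAT factors), a core of the interferon response element and GAGGAA (a core of ETS factors such as PU.1). Capitals mark the matches, the sequences are written 5′ to 3′ along the strand of the gene, and all come from RefSeq on GRCm38.p6.
Fcgr1, chr3:96293970-96294219, minus strand: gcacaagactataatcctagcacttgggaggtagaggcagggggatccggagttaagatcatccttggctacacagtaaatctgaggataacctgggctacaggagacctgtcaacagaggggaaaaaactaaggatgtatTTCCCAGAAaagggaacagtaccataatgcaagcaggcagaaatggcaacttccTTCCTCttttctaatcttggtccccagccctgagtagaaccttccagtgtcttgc
Fcgr4, chr1:171018676-171018925, plus strand: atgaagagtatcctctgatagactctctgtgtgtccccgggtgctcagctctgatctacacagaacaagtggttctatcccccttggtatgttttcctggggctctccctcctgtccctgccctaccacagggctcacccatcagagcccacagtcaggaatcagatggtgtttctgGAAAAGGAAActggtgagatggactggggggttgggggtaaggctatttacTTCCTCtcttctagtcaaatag
Fcgr3, chr1:171059404-171059653, minus strand: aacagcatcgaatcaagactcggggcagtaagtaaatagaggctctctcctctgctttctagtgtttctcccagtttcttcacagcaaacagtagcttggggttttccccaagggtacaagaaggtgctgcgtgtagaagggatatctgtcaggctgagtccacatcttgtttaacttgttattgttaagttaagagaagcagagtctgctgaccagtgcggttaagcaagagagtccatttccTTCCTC
Fcgr2b, chr1:170976072-170976321, minus strand: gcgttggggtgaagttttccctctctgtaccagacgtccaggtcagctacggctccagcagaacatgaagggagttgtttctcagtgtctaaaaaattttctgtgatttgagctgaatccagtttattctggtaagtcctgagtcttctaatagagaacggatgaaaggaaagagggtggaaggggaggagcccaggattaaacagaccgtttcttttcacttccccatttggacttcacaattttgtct

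All 3 activating receptor genes carried the ETS letters on the opposite strand, beginning 55 bases before the start in Fcgr1, 22 in Fcgr4 and 6 in Fcgr3, and the windows of Fcgr2b, Fcer1g and Fcgrt did not hold them. The STAT letters stood once in Fcgr1, as TTCCCAGAA beginning 109 bases before the start, and the interferon letters once in Fcgr4, as GAAAAGGAAA beginning 73 bases before the start. Of 32851 promoter windows of this length, 23.3% held the ETS letters, 7.02% the STAT letters and 2.98% the interferon letters. The match is a description of the letters only. The RefSeq start of Fcgr3 lies 5532 bases inside the deposited gene, and that of Fcgr2b 476 bases inside.

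The libraries held 65880460 to 89113010 counts each, so 3 counts, the floor used for a gene at 0, equal 0.0337 to 0.0455 CPM, the count relative to the total of its library. Summed CPM of 8 neuronal markers ran from 5675 to 7214, and that of 8 choroid plexus markers from 128.6 to 367.2 in GFP and 32.6 to 88.7 in GFP-GR100. GFP 3 stood above the other GFP libraries for microglial markers, with a summed CPM of 523.4 against 407.3 to 425.6, and results that rest on it are given with and without it. The labelled cortex and hippocampus weight was 111.4 to 126.6 mg in GFP and 71.9 to 85.1 mg in GFP-GR100, and its part in the values below was not tested. The share of counts at 3 loci with ribosomal RNA sequence ran from 2.76% to 11.4% and was higher in females than in males in GFP and the reverse in GFP-GR100.

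A larger share of the counts came from the activating receptor genes Fcgr1 and Fcgr3 in GFP-GR100 than in GFP. The same held for the gamma chain gene Fcer1g and the inhibitory receptor gene Fcgr2b. Fcgr4 and Fcgrt did not pass the test. These values are shares of each library, and amounts per brain were not measured. With edgeR's quasi-likelihood test, adjusted by the Benjamini-Hochberg method over 20987 genes with a threshold of 0.05, 4 of the 6 genes rose and 0 fell. Of all tested genes 2.19% rose and 0.324% fell. At an unadjusted p under 0.05, 5 of the 6 lay higher and 0 lay lower. The share of all tested genes with such a p for the group effect is not given here. This limit also holds for the unadjusted counts of the other lists below. DESeq2 and limma-voom also called 4 higher and 0 lower. The median log2 fold change of the 6 genes was 1.11, against -0.02 over all tested genes. In bulk tissue more cells of a type and more RNA per cell cannot be told apart. CPM below are scaled by the trimmed mean of M values (TMM).

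Fcgr1, the high-affinity IgG receptor, had the smallest p of the 6. Its CPM were 3.51, 4.07, 4.74 and 3.86 in GFP 1 to 4, against 8.35, 9.92, 11.6 and 11.003 in GFP-GR100 1 to 4. Every GFP-GR100 library lay above every GFP library, and the spread within each group was narrow against the gap. The mean rose from 4.04 ± 0.517 to 10.2 ± 1.43 CPM (SD, n = 4 per group), a fitted 2.52-fold change (log2 fold change 1.33, SE 0.12, edgeR adjusted p = 7.99e-05).

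Fcgr3, the low-affinity activating receptor, had the most counts of the 4 Fcgr genes. CPM were 11.5, 10.1, 19.8 and 13.1 in GFP 1 to 4, against 20.6, 19.4, 25.9 and 23.6 in GFP-GR100 1 to 4. The groups overlapped, because GFP 3 lay above GFP-GR100 2, while the other 3 GFP libraries lay below all GFP-GR100 libraries. It rose from a mean of 13.6 ± 4.29 CPM to one of 22.4 ± 2.95 CPM (log2 fold change 0.74, SE 0.13, edgeR adjusted p = 0.00691). Without sex in the model the call was lost (log2 fold change 0.71, adjusted p = 0.107).

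Fcgr4, an activating receptor with intermediate affinity for some IgG subclasses, was the lowest of the 6 and the most uneven within GFP. It had 36, 4, 129 and 18 counts in GFP 1 to 4, or 0.594, 0.0540, 1.43 and 0.223 CPM. The GFP-GR100 libraries held 180, 142, 162 and 149 counts, or 1.97, 1.80, 2.09 and 2.18 CPM. All GFP-GR100 values lay above all GFP values, and the GFP-GR100 values lay close together while those of GFP spread widely. The log2 fold change was 1.91 (SE 0.73) and did not pass (edgeR adjusted p = 0.284). Without GFP 3 it was 2.86 and passed (adjusted p = 0.0405), and over all other fits it stayed above 0, with adjusted p from 8.03e-14 with no filter on low counts to 0.534 without GFP-GR100 2.

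Fcer1g, the gamma chain without which the activating receptors are poorly expressed at the surface, was at 6.89, 6.32, 10.8 and 6.41 CPM in GFP 1 to 4. In GFP-GR100 1 to 4 it was at 12.3, 12.8, 16.6 and 18.2 CPM. The groups did not overlap, and GFP 3 lay between the other GFP libraries and the GFP-GR100 females. It rose from a mean of 7.61 ± 2.15 CPM to one of 14.97 ± 2.87 CPM (log2 fold change 0.97, SE 0.14, edgeR adjusted p = 0.00220).

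Fcgr2b, the inhibitory receptor, was at 4.47, 3.90, 6.86 and 3.96 CPM in GFP 1 to 4, against 8.95, 10.6, 12.2 and 13.7 CPM in GFP-GR100 1 to 4. All GFP-GR100 libraries lay above all GFP libraries. Its mean level rose, from 4.80 ± 1.40 to 11.4 ± 2.04 CPM, a fitted 2.36-fold change (log2 fold change 1.24, SE 0.16, edgeR adjusted p = 0.000905).

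Fcgrt showed another pattern. CPM were 14.1, 15.9, 20.4 and 17.3 in GFP 1 to 4, against 15.1, 15.1, 13.5 and 14.0 in GFP-GR100 1 to 4. The groups overlapped, with the GFP-GR100 males below all GFP libraries. The mean was 16.9 ± 2.66 and 14.4 ± 0.782 CPM (log2 fold change -0.23, SE 0.11), and the difference did not pass (edgeR adjusted p = 0.353). Summed CPM of endothelial markers were 218.3 to 249.9 in GFP and 222.3 to 312.5 in GFP-GR100, and 0 of 10 passed, with 2 higher and 1 lower before adjustment, and 2 higher in DESeq2 and 0 in limma-voom. Choroid plexus markers were lower, as given above, with 2 of 8 called lower by edgeR, 7 by DESeq2 and 3 by limma-voom. Of these 2, Folr1 and Cldn2, the call of Cldn2 was lost without GFP-GR100 2 (edgeR adjusted p = 0.0655), GFP-GR100 3 (0.0663) or GFP-GR100 4 (0.0542). The log2 fold change of Cldn2 was then -2.62 to -2.38. The part of either cell type in the Fcgrt values was not tested.

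**Figure D1:**
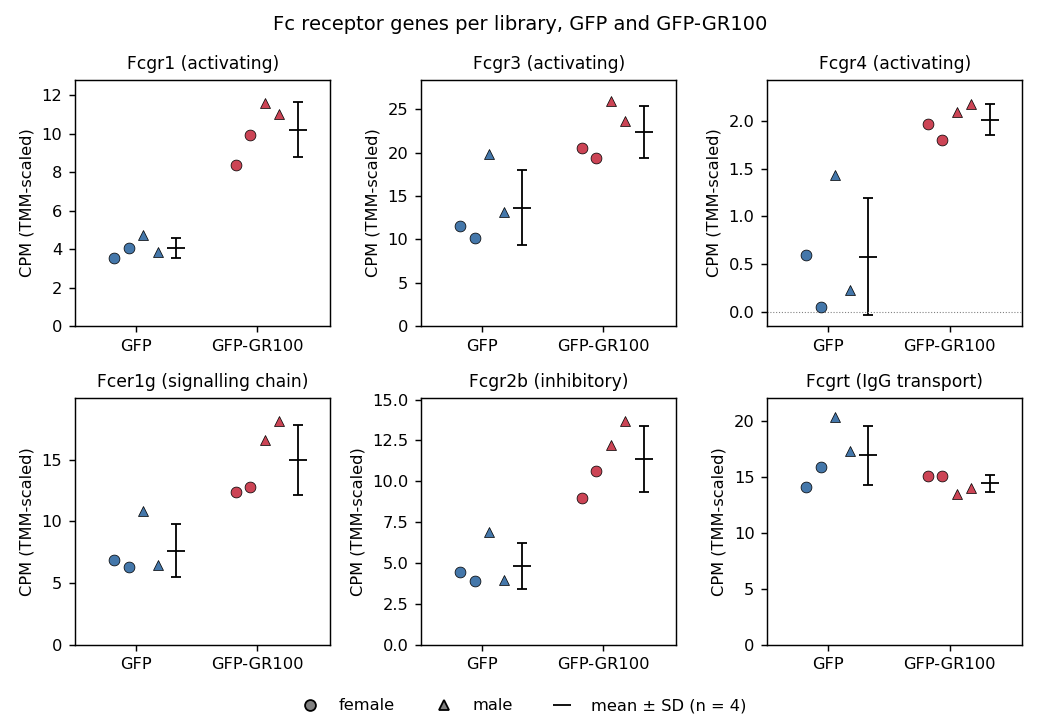
CPM (TMM-scaled, vertical axis) of the 6 genes in GFP and GFP-GR100 libraries, where circles are females, triangles are males and bars show the mean ± SD (n = 4). In Fcgr1, Fcgr4, Fcer1g and Fcgr2b all GFP-GR100 points lie above all GFP points, and GFP 3 is the highest GFP point in all 6 panels.

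Groups did not overlap, with GFP-GR100 higher, in 4 of the 6 genes (Fcgr1, Fcgr4, Fcer1g and Fcgr2b), against 5.03% of all tested genes. Leaving out GFP 3, 5 of the 6 genes rose, and leaving out any other single library 4 rose. Levels between genes were compared per length, in the RPKM of the deposited table. In GFP the mean RPKM was 9.56 ± 1.84 for Fcgrt, 8.54 ± 2.65 for Fcer1g, 7.72 ± 2.66 for Fcgr3, 1.53 ± 0.247 for Fcgr1, 0.813 ± 0.257 for Fcgr2b and 0.451 ± 0.494 for Fcgr4. In GFP-GR100 the order was Fcer1g at 17.5 ± 3.14, Fcgr3 at 13.2 ± 1.51, Fcgrt at 8.49 ± 0.601, Fcgr1 at 4.03 ± 0.517, Fcgr2b at 2.01 ± 0.342 and Fcgr4 at 1.63 ± 0.112. In GFP the means of Fcgrt, Fcer1g and Fcgr3, and those of Fcgr2b and Fcgr4, lay within 1 SD of their neighbour. In GFP-GR100 1 Fcgr4 lay above Fcgr2b, against the order of the means. Fcer1g was above Fcgr3 in all 4 GFP-GR100 libraries and in 3 of 4 GFP libraries, and Fcgrt went from the highest level in 3 of 4 GFP libraries to the third in all 4 GFP-GR100 libraries. Fcgr2b is divided by 5790 bases of exons, more than the 3544 bases of its longest coding transcript in GENCODE M21, which lowers its RPKM in all libraries alike.

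Across the 8 libraries the 5 genes other than Fcgrt followed each other, with Pearson r of log2(CPM + 0.1) from 0.793 (Fcgr1 and Fcgr4) to 0.991 (Fcgr2b and Fcer1g). Those of Fcgrt with the others ran from -0.518 to -0.192. These are descriptions over libraries that share a group difference. Among 13785 other named genes of at least 1 CPM, the most alike to Fcgr1 were Tor3a (r = 0.993), Trim34a (0.993) and Slc37a2 (0.991). Fcgr2b was most like Csf3r (0.992), the receptor of granulocyte colony-stimulating factor, and Apobec3 (0.989). For Fcgr3 they were C1qb (0.986), a complement component, Tyrobp (0.986), an ITAM adaptor, and Ctsh (0.984). Fcgr4 was most like C3 (0.994), Lyz2 (0.979) and Pycard (0.979), and Fcer1g like Gfm2 (0.993), Tmem173 (0.990) and Ifi30 (0.989). Fcgrt was most like Ass1 (0.987) and Lcat (0.978), neither of which passed between the groups.

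The group effect was also estimated within each sex, with a sex-by-group term added to the model. Fcgr1 had a log2 fold change of 1.27 (SE 0.17) in females and 1.39 (SE 0.17) in males. For Fcgr2b it was 1.22 (SE 0.23) and 1.26 (SE 0.23), for Fcer1g 0.93 (SE 0.20) and 1.01 (SE 0.20), and for Fcgr3 0.89 (SE 0.17) and 0.59 (SE 0.17). Fcgr4 was at 2.60 (SE 1.14) in females and 1.35 (SE 1.01) in males. Fcgrt was at 0.01 (SE 0.13) in females and -0.45 (SE 0.13) in males. Within males alone, 2 libraries against 2, the Fcgrt difference passed (edgeR adjusted p = 0.0421). The share of all tested genes that passed within males is not given here, nor are the within-sex adjusted p of the other members. The difference of the effect between sexes passed for 0 of the 6 genes in edgeR, DESeq2 and limma-voom, where edgeR called 0.0524% of all tested genes. At an unadjusted p under 0.05 it was Fcgrt alone (difference -0.46, SE 0.18, edgeR adjusted p = 0.230), where 16.4% of all tested genes had such a p. The share of counts at the ribosomal RNA loci differed between the sexes in opposite directions in the 2 groups, and its part in the Fcgrt difference was not tested. Over both groups, males were above females by 0.46 (SE 0.13) on the log2 scale for Fcgr3 and 0.43 (SE 0.14) for Fcer1g, with adjusted p = 0.0587 and 0.0878, so that neither passed, nor did any of the other 4 genes, while edgeR called 4.18% of all tested genes between the sexes.

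**Figure D2:**
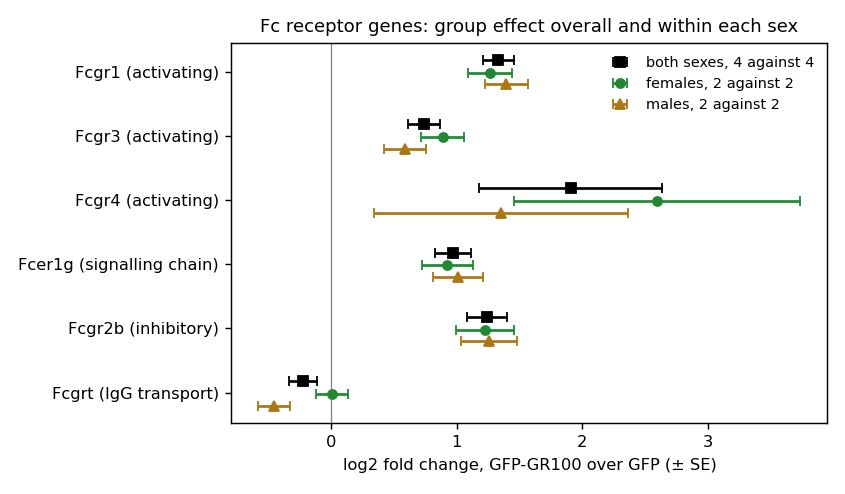
Log2 fold change from GFP to GFP-GR100 (horizontal axis, ± SE) of the 6 genes, in both sexes (squares), in females (circles) and in males (triangles). The estimates of Fcgr1, Fcgr2b and Fcer1g lie between 0.93 and 1.39, those of Fcgr4 carry the widest errors, and Fcgrt lies at 0.01 in females and -0.45 in males.

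The second comparison set the activating genes against the inhibitory one within each library, as the ratio of their counts per length to those of Fcgr2b, which does not depend on the scaling between libraries. Fcgr3 and Fcer1g were lower relative to Fcgr2b in all GFP-GR100 libraries than in all GFP libraries, and Fcgr1 and Fcgr4 overlapped between the groups. None of the 4 pairs passed the threshold after adjustment over the 4 pairs. Fcgr3 and Fcer1g had the smallest p that the test can give, as described below. The permutation tests of ratios here and below did not take sex into account.

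The ratio of Fcgr3 to Fcgr2b was 8.58, 8.66, 9.63 and 11.1 in GFP 1 to 4. It was 7.66, 6.10, 7.07 and 5.77 in GFP-GR100 1 to 4. The highest GFP-GR100 value lay below the lowest GFP value. On the log2 scale the mean went from 3.24 ± 0.17 to 2.72 ± 0.19 (SD, n = 4 per group), a difference of -0.51, with a two-sided exact permutation p of 0.0286 and an adjusted p of 0.0571. This p is the smallest that the 70 assignments of 8 libraries to groups of 4 can give. When only Fcgr3 and Fcer1g reach it, the adjusted p of both is fixed at 0.0571, however large their differences.

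The ratio of Fcer1g to Fcgr2b was 10.2, 10.7, 10.5 and 10.7 in GFP 1 to 4, a narrow range, and 9.14, 7.96, 9.01 and 8.80 in GFP-GR100 1 to 4. Again the groups did not overlap, with a difference of -0.27 on the log2 scale (exact permutation p = 0.0286, adjusted p = 0.0571). Without GFP 3 the adjusted exact permutation p was 0.0381 for the ratios of Fcgr3 (difference -0.50), Fcer1g (-0.28) and Fcgr4 (1.93). The unadjusted p of Fcgr3 and Fcer1g stayed at 0.0286 there. Their adjusted p was lower only because Fcgr4 reached the same unadjusted p.

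For Fcgr1 the ratio to Fcgr2b was 1.76, 2.33, 1.55 and 2.18 in GFP 1 to 4, against 2.09, 2.09, 2.13 and 1.80 in GFP-GR100 1 to 4. The GFP-GR100 values lay inside the GFP range, with a difference of 0.07 on the log2 scale (exact permutation p = 0.686), which turned to -0.04 without GFP 3. For Fcgr4 the ratio was 0.612, 0.0638, 0.962 and 0.260 in GFP and 1.02, 0.782, 0.789 and 0.734 in GFP-GR100. Here GFP 3 lay within the GFP-GR100 range and the other 3 GFP libraries below it (difference 1.39, exact permutation p = 0.171, adjusted p = 0.229). Without GFP 2, which held 4 counts of Fcgr4, the difference was 0.62 (adjusted exact permutation p = 0.343).

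**Figure D3:**
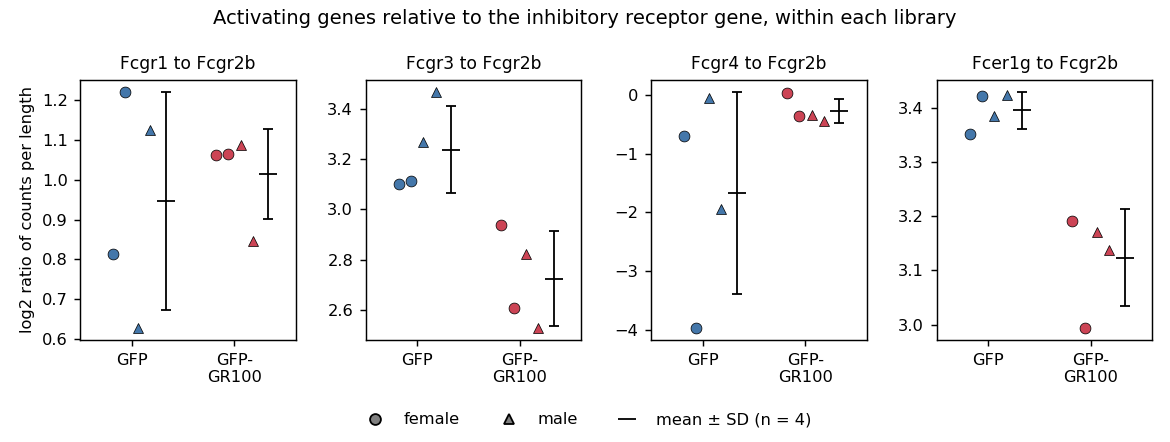
Log2 ratio of counts per length (vertical axis) of Fcgr1, Fcgr3, Fcgr4 and Fcer1g to Fcgr2b within each library, where circles are females, triangles are males and bars show the mean ± SD (n = 4); the vertical scale differs between panels. The ratios of Fcgr3 and Fcer1g are lower in all GFP-GR100 libraries than in all GFP libraries, by 0.51 and 0.27 in the mean.

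As a share of the summed RPKM of the 4 Fcgr genes, Fcgr3 made up 71.8%, 71.8%, 73.3% and 76.3% in GFP 1 to 4, against 65.1%, 61.2%, 64.4% and 62.0% in GFP-GR100 1 to 4. The inhibitory Fcgr2b made up 6.89% to 8.37% in GFP and 8.50% to 10.8% in GFP-GR100. That of Fcgr1 was 11.8% to 19.3% and 17.8% to 20.96%, and that of Fcgr4 0.529% to 7.32% and 7.19% to 8.63%. The sum of the 4 was 7.96 to 15.7 RPKM in GFP and 18.7 to 23.2 RPKM in GFP-GR100, with GFP 3 at 15.7 and the other GFP libraries at or below 9.89. These shares are descriptions with no test.

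Fcgr2b and Fcgr3 have similar extracellular parts, so some reads could be counted for either. Of the distinct 50-base stretches of GENCODE M21 transcripts, 166 were shared by both genes, 9.58% of those of Fcgr3 and 2.92% of those of Fcgr2b, and the sources used here do not state how shared reads were counted. Fcgr1, Fcgr4, Fcer1g and Fcgrt shared 0 such stretches with another gene. With the counts of Fcgr2b and Fcgr3 summed to 1 feature, the log2 fold change was 0.89 (SE 0.12, edgeR adjusted p = 0.00184).

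The third comparison gave the level of each gene beside that of microglia, from the summed counts of 12 microglial markers, among them P2ry12, Tmem119, Cx3cr1, Csf1r and Fcrls. Of these 12, 7 rose and 0 fell, with a median log2 fold change of 0.54, and their summed CPM were 407.3 to 523.4 in GFP and 602.2 to 656.7 in GFP-GR100. Relative to these markers Fcgr1, Fcgr2b and Fcgr4 were higher in GFP-GR100, Fcgrt was lower, and Fcgr3 and Fcer1g did not pass.

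Fcgr1 had 8.25, 9.98, 9.06 and 9.40 counts per 1000 marker counts in GFP 1 to 4, against 13.9, 15.4, 17.7 and 16.9 in GFP-GR100 1 to 4. Fcgr2b had 10.5, 9.59, 13.1 and 9.64 in GFP and 14.9, 16.5, 18.6 and 21.1 in GFP-GR100. In both genes every GFP-GR100 library lay above every GFP library, with log2 differences of 0.80 and 0.73. Fcgr4 was at 1.39, 0.133, 2.74 and 0.544 in GFP and at 3.27, 2.79, 3.19 and 3.35 in GFP-GR100, without overlap but with GFP 3 close to GFP-GR100 2. Its log2 difference was 2.12, and it was 1.30 without GFP 2 and 2.76 without GFP 3. Fcgrt went the other way, with 33.2, 39.1, 39.0 and 42.2 in GFP and 25, 23.4, 20.6 and 21.6 in GFP-GR100 (log2 difference -0.76). The CPM of Fcgrt did not pass between the groups (log2 fold change -0.23, edgeR adjusted p = 0.353), while the marker sum rose without overlap. A ratio to these markers falls also for a gene whose own level does not change. Fcgr1, Fcgr2b, Fcgr4 and Fcgrt each had an exact permutation p of 0.0286, without sex in the test, and an adjusted p of 0.0429 over the 6 genes.

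Fcgr3 ran from 24.9 to 37.9 counts per 1000 marker counts in GFP and from 30.1 to 39.4 in GFP-GR100, with a log2 difference of 0.21 (exact permutation p = 0.229). Fcer1g ran from 15.5 to 20.7 and from 19.8 to 28.0, with a log2 difference of 0.46 (exact permutation p = 0.0857, adjusted p = 0.103). For Fcer1g the ranges overlapped through GFP 3 alone. Without GFP 3 the adjusted exact permutation p of Fcer1g was 0.0343. The 4 calls above were lost when any GFP-GR100 library was left out, with adjusted exact permutation p from 0.0571 to 0.137, and kept their direction. For Fcgr1 and Fcgrt the unadjusted exact permutation p stayed at 0.0286 each time. Their adjusted p moved only with the p of the other genes.

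**Figure D4:**
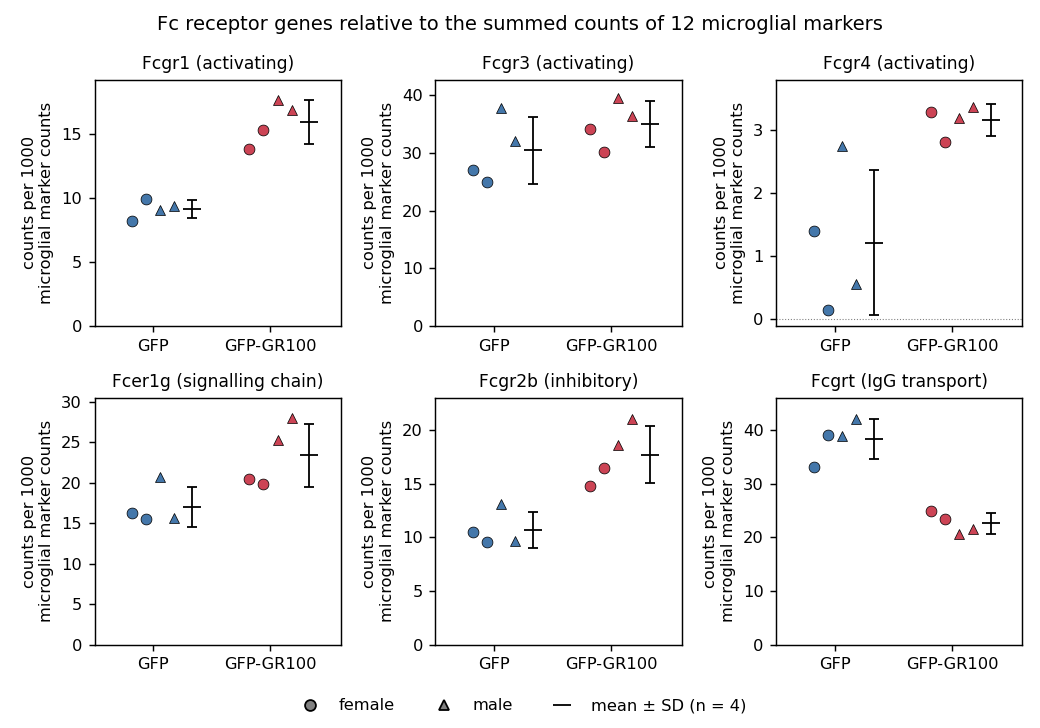
Counts of each gene per 1000 summed counts of 12 microglial markers (vertical axis), where circles are females, triangles are males and bars show the mean ± SD (n = 4). Fcgr1, Fcgr2b and Fcgr4 are higher and Fcgrt is lower in all GFP-GR100 libraries than in all GFP libraries, while Fcgr3 and Fcer1g overlap.

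Other cells that carry Fc receptors were followed by their markers. Border macrophage markers had a summed CPM of 26.1 to 29.2 in GFP and 27.1 to 36.5 in GFP-GR100, and 1 of 10 rose, the sialic acid receptor Siglec1 (log2 fold change 1.10, edgeR adjusted p = 0.0140, but 0.0545 without GFP 4 and 0.0583 without GFP-GR100 3). Monocyte and neutrophil markers had 9.21 to 14.5 and 17.8 to 26.8 CPM, most of it from Csf3r. Of 7 tested, 2 rose, Csf3r, at 6.48 ± 1.33 and 16.1 ± 3.03 CPM, and Plac8, at 0.382 ± 0.131 and 1.17 ± 0.170 CPM. The other 5 tested had log2 fold changes from 0.08 to 0.88 and did not pass, and 5 more were too low to test, with 2 to 15 counts over the GFP libraries and 0 to 33 over the GFP-GR100 libraries. B and plasma cell markers had 3.59 to 4.19 and 3.84 to 5.58 CPM. T and natural killer cell markers had 13.7 to 17.2 and 16.2 to 20.8 CPM, most of it from Cd4 at 13.5 ± 0.524 and 16.8 ± 2.06 CPM. Cd3d was at a mean of 0.192 and 0.181 CPM and Cd3e at 0.168 and 0.259 CPM, so this sum mainly follows Cd4. In edgeR, DESeq2 and limma-voom 0 B cell and 0 T and natural killer cell markers passed, with 2 and 1 higher at an unadjusted p under 0.05. The part of these cells in the Fc receptor values was not tested.

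Genes acting downstream of the receptors are known chiefly from myeloid cells, and many of them rose. Of 18 ITAM signalling genes 14 rose and 0 fell, and all 18 had a log2 fold change above 0 (median 0.89). Tyrobp, the adaptor that shares the ITAM design of Fcer1g, was at 11.2, 9.66, 20.5 and 11.7 CPM in GFP 1 to 4, against 23.5, 24.3, 37.0 and 31.1 CPM in GFP-GR100 1 to 4, without overlap (log2 fold change 1.14, SE 0.15, edgeR adjusted p = 0.00187). Pik3ap1, an adaptor of phosphoinositide 3-kinase, rose from 2.34 ± 0.553 to 5.97 ± 0.801 CPM (log2 fold change 1.37), and Vav1, an exchange factor for Rac, from 3.93 ± 0.608 to 8.03 ± 0.977 CPM. The phosphatase Ptprc (CD45) and the adaptor Lcp2 also rose, with log2 fold changes of 1.31 and 0.92. Syk itself, the kinase that binds the ITAM, was at 5.40 ± 0.892 and 7.16 ± 0.889 CPM and did not pass (log2 fold change 0.41, edgeR adjusted p = 0.222). The number that rose was 9 without GFP-GR100 2 and 8 without GFP-GR100 3.

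Of 12 genes of inhibitory signalling 4 rose and 0 fell, with a median log2 fold change of 0.32. Inpp5d (SHIP1), the phosphatase that Fcgr2b recruits, rose (14.9 ± 1.15 and 22.4 ± 1.78 CPM, log2 fold change 0.59, SE 0.09, edgeR adjusted p = 0.00406). Ptpn6 (SHP-1) rose from 4.15 ± 1.24 to 9.96 ± 0.978 CPM and the inhibitory receptor Cd300a from 1.65 ± 0.164 to 3.08 ± 0.299 CPM. Lilrb4, another inhibitory receptor, rose from 0.220 ± 0.0957 to 1.49 ± 0.343 CPM (log2 fold change 2.74), although it has a similar copy among which counting could split reads. The broadly expressed Ptpn11, Csk, Cbl, Cblb and Sirpa had log2 fold changes between -0.05 and 0.07 and did not pass. Cbl ran from 5.91 to 40.3 CPM in GFP, and its estimate was imprecise (SE 0.38). Dok1, Pirb and Dok2 did not pass either, with log2 fold changes of 0.58, 0.57 and 0.05 (edgeR adjusted p = 0.230, 0.298 and 0.941).

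Of 14 genes of phagocytosis and the oxidase 8 rose and 0 fell, with a median log2 fold change of 0.81. Cybb, the catalytic subunit of the phagocyte NADPH oxidase, rose (1.26 ± 0.633 and 6.28 ± 0.615 CPM, log2 fold change 2.32, SE 0.34, edgeR adjusted p = 0.00695). Its partners Cyba and Ncf1 rose by 0.81 and 0.84 on the log2 scale. The actin regulators Nckap1l, Dock2 and Myo1f rose by 0.80, 1.09 and 1.27.

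**Figure D5:**
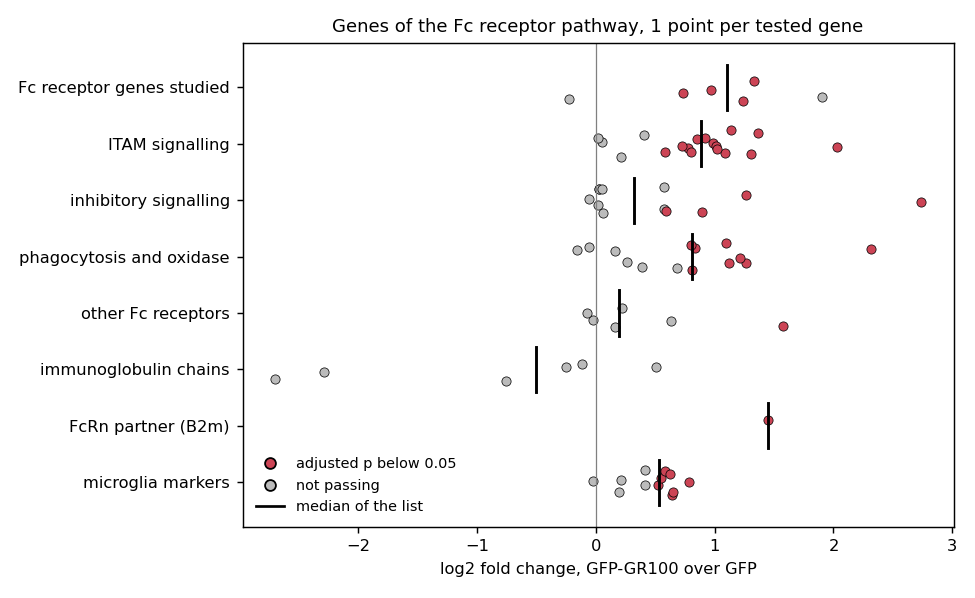
Log2 fold change from GFP to GFP-GR100 (horizontal axis) of the tested genes of each list, 1 point per gene, red where the edgeR adjusted p is below 0.05, with a bar at the median of the list. Of 18 ITAM signalling genes 14 are red, of 12 inhibitory signalling genes 4, of 14 phagocytosis and oxidase genes 8, and of 6 immunoglobulin chains 0.

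Of 6 other Fc receptor genes tested, 1 rose and 0 fell, with a median log2 fold change of 0.19. The one that rose was Trim21, the cytosolic antibody receptor, itself an interferon-stimulated gene, which went from 2.56 ± 0.499 to 7.62 ± 0.780 CPM (log2 fold change 1.57, SE 0.16, edgeR adjusted p = 0.000186). Fcrls, an Fc receptor-like gene of microglia, was at 30.01 ± 5.42 and 29.3 ± 3.15 CPM (log2 fold change -0.02, adjusted p = 0.933). The mast cell receptor chains Fcer1a and Ms4a2 had 2 and 0 counts over the GFP libraries and 0 and 7 over the GFP-GR100 libraries.

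The Ighg genes encode heavy chains of IgG, the ligand of the Fc gamma receptors. Antibody protein was not measured, and the immunoglobulin chain genes were followed only as RNA of this tissue. Of 6 tested, 0 passed in edgeR and limma-voom, with 1 lower at an unadjusted p under 0.05, while DESeq2 called Ighg2b lower. Ighm was the highest, at 29.3 ± 5.18 and 27.0 ± 3.45 CPM (log2 fold change -0.11), followed by Ighg2c at 3.06 ± 0.784 and 2.56 ± 0.889 CPM. Igkc, the kappa light chain, was at 5.33, 0.203, 2.40 and 1.19 CPM in GFP 1 to 4, against 0.876, 0.317, 0.258 and 0.424 CPM in GFP-GR100 1 to 4. Ighg2b was at 2.03, 0.135, 0.932 and 0.174 CPM in GFP and at 0.0888 to 0.153 CPM in GFP-GR100. In both genes GFP 1 was the highest and the groups overlapped (log2 fold change -2.29 and -2.70, edgeR adjusted p = 0.330 and 0.203). Without GFP 2 both were called lower (adjusted p = 0.00742 and 0.0292). Igj and Ighd had log2 fold changes of -0.75 and 0.51. The chains Igha, Ighg1, Iglc2 and Ighg3 were too low to test, with 179, 44, 49 and 8 counts over the GFP libraries and 15, 6, 21 and 2 over the GFP-GR100 libraries, and Ighe had 0 in all. Most of the GFP counts of Igha and Ighg1 came from GFP 1, at 2.18 CPM of Igha against 0.0810 to 0.366 CPM in the other GFP libraries, and 0.429 CPM of Ighg1 against 0 to 0.178 CPM. The IgG heavy chains are similar in sequence, so counting could split their reads.

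B2m, the chain that pairs with FcRn and also with major histocompatibility complex class I proteins, was at 91.4, 67.1, 155.9 and 67.9 CPM in GFP 1 to 4, against 222.6, 228.3, 309.7 and 277.8 CPM in GFP-GR100 1 to 4. The groups did not overlap, while those of Fcgrt did. B2m rose (log2 fold change 1.45, SE 0.24, edgeR adjusted p = 0.0216), and the call was lost without GFP 1 (0.0802), GFP 2 (0.0594) or any one GFP-GR100 library (0.0553 to 0.111).

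Genes near the 6 loci were counted beside all tested genes. Of 58 tested genes within 100 kb of a member, 0 passed in edgeR and limma-voom, while DESeq2 called 2 higher, both near Fcgrt. An unadjusted p under 0.05 was found for 7. Of all 20987 tested genes edgeR called 2.52% in either direction, and DESeq2 called 724 higher and 200 lower. Numbers this small do not set the neighbours apart from all tested genes. Around the chromosome 1 genes 21 neighbours were tested, with log2 fold changes from -0.56 to 0.63 and a median of -0.05, and 15 around Fcgr1 had values from -0.24 to 0.27. The 22 around Fcgrt ran from -0.32 to 0.74. The highest and the one with the smallest p of all 58 was Flt3l, a cytokine gene near Fcgrt (log2 fold change 0.74, SE 0.19, edgeR adjusted p = 0.0680), and on chromosome 1 the Fc receptor-like gene Fcrlb was the highest (log2 fold change 0.63, SE 0.24, edgeR adjusted p = 0.237).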

How the data were processed

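The deposited table holds counts and RPKM per gene for 8 libraries. The counts were made by the authors from paired-end reads of a stranded total RNA kit, per the labels' protocols. TopHat2 2.1.0, mm10, CASAVA, DESeq2 and R 3.4.1 are named in the submitters' processing notes, while the counter, annotation and use of strand are not stated in these sources. The deposited RPKM equals the count divided by the listed gene length and the library total, within a ratio of 1.00023 to 1.00024.

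Counts were tested with edgeR 4.0.16 in R 4.3.3 (TMM scaling, robust quasi-likelihood fit, sex and group in the model). filterByExpr (minimum count 10, minimum total 15) kept 20987 genes, with Benjamini-Hochberg adjustment over all of them. Ratios within a library were compared by two-sided exact permutation tests over all assignments of libraries to groups, with no account of sex. DESeq2 1.42.0 and limma 3.58.1 were alternatives. On simulated data for GFP-GR100 against GFP with 20786 genes, the fit recovered 65.3% of 98 log2 changes of 1 and 93.9% of 99 of 2. It also made 20 false calls among genes simulated without a change. Replicates are numbered in accession order, and p-values measure the spread between these samples.

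The members and lists were chosen with earlier results of these data known. Named genes are all members, up to 6 called genes of each list by smallest p, every immunoglobulin chain with a count, up to 3 genes of each marker list, and the 3 genes most correlated with each member; a few genes that this rule names are not reported here. Syk, Fcrls, Fcrlb, Flt3l, Fcer1a, Ms4a2, Ptpn11, Csk, Cbl, Cblb, Sirpa, Dok1, Dok2 and Pirb were named outside that rule, after their values were seen. Promoter windows come from RefSeq on GRCm38.p6.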

Additional observations from a re-analysis of the deposited data

Results flagged for a closer look

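Of 32 groups of 4 values checked, 3 held a library far from the other 3, where chance alone marks about 1 in 20 groups. Fcer1g in GFP was highest in GFP 3, at 10.8 CPM, against 6.32 to 6.89 CPM in the other GFP libraries. The log2 ratio of Fcer1g to summed microglial marker counts in GFP was also highest in GFP 3, at -5.60, against -6.01 to -5.95. In GFP-GR100 the log2 ratio of Fcgr1 to Fcgr2b was lowest in GFP-GR100 4, at 0.847, against 1.06 to 1.09.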

How the results depend on the processing

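Fcgr1, Fcgr2b and Fcer1g kept their direction and call in all 18 or 19 alternative fits, and Fcgrt stayed lower in GFP-GR100 and uncalled in all 18. Leaving out 1 library at a time, adjusted p ran from 8.26e-05 to 0.000888 for Fcgr1, 0.000112 to 0.00529 for Fcgr2b, 0.000133 to 0.0347 for Fcgr3, 0.0405 to 0.534 for Fcgr4, 0.000215 to 0.0119 for Fcer1g and 0.225 to 0.681 for Fcgrt. Fcgr3 was lost without sex in the model (0.107). Fcgr4 passed with no filter (8.03e-14), with limma-trend on log2(RPKM + 1) (0.0303) and without GFP 3; the cause was not tested. The number of members called was 3 to 5. Over the pathway lists 28 genes were called higher (20 to 30 over the alternatives), and 0 lower, against 4 with no filter, 1 with DESeq2 and 2 without GFP 2. All genes called numbered 460 higher and 68 lower, against 1168 and 361 with no filter, 724 and 200 with DESeq2, 304 and 19 without GFP-GR100 2, and 310 and 19 without GFP-GR100 3. The call of B2m was lost with the ribosomal RNA share as a covariate (0.0652), where its log2 fold change stayed at 1.45.

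For ratios to Fcgr2b, adjusted exact permutation p without 1 library ran from 0.343 to 0.857 for Fcgr1, 0.0381 to 0.114 for Fcgr3 and Fcer1g, and 0.0381 to 0.419 for Fcgr4. Without GFP 3 the direction of Fcgr1 to Fcgr2b reversed (log2 difference -0.04, adjusted exact permutation p = 0.743); the cause was not tested. Relative to microglial markers these ranges were 0.0343 to 0.0857 for Fcgr1 and Fcgrt, 0.0343 to 0.114 for Fcgr2b, 0.0343 to 0.137 for Fcgr4, 0.0857 to 0.457 for Fcgr3 and 0.0343 to 0.171 for Fcer1g. Without GFP 3 and GFP-GR100 4 together, Fcgr1, Fcgr2b, Fcgr4 and Fcgrt had an adjusted exact permutation p of 0.12, where 3 against 3 cannot go below 0.1 before adjustment. With the median log2 CPM of the markers as the reference, Fcer1g passed (0.0343). No paired analysis was possible because replicate numbers follow accession order and pair no animals. Fcgr4 held 4 to 129 counts in the GFP libraries, and the part of depth in its missing call was not tested.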
